A study of Homo sapiens with 30 samples.

Results

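Lamina-associated domains of HCT116, a human colorectal carcinoma cell line, were compared between the G1 and the G2 stage of the cell cycle. The members were all intervals of the deposited G1 and G2 consensus lists on the 22 autosomes, 329 in G1 and 341 in G2, or 670 of the 1069 intervals in the 3 lists of the series. Per the labels, cells were transfected, using Lipofectamine 2000, with a construct of the peroxidase APEX2 and lamin B1, and each stage had 2 replicates of pulled-down DNA, each with an input. DNA was purified on Ampure XP beads and made into libraries with a ThruPlex kit. An S stage list made in the same way was used only to place the differences. All groups carry the transfected fusion, the labels name no unlabelled control, and how cells were assigned to a stage is not given in the sources used here. The deposited lists hold 1 consensus list for each stage, without scores, so no replicate spread and no test of G1 against G2 can be given, and every value below describes these lists. Their edges lie on a 100 kb grid apart from 5, and a shift of 100 kb is therefore 1 grid step. HCT116 RNA was not analysed here, so the label of the line could not be checked against marker genes.

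Lamina-associated domains are long stretches of chromatin that touch the nuclear lamina, the mesh of lamins beneath the inner nuclear membrane. They are known to be poor in genes, late to replicate and mostly silent, and many hold neuronal, sensory or tissue-restricted genes. The lamina is taken apart at mitosis and contacts are set up again in the daughter nuclei, so G1 follows their rebuilding while G2 is the last stage before they are dissolved. APEX2 marks molecules close to the fused protein with biotin, and the marked DNA is then pulled down on streptavidin.

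Most of the domain map was the same in both stages, and G2 covered somewhat more of the genome. The G1 intervals covered 533.0 Mb and had a median length of 1.1 Mb, with a range from 0.1 to 14.1 Mb. The G2 intervals covered 564.2 Mb, with a median of 1.2 Mb and a range from 0.1 to 9 Mb. Both lists shared 489.6 Mb, which is 91.9% of the G1 bases, 86.8% of the G2 bases and 80.6% of the bases in either list. Only in G1 lay 43.4 Mb and only in G2 lay 74.6 Mb.

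Each interval was classed by the intervals it touched in the other list. Of the intervals, 265 in each list met exactly 1 partner, and these made up 80.5% of the G1 and 77.7% of the G2 intervals. Among the 265 pairs, 52 had both edges on the same base, 128 had moved at 1 edge and 85 at both. No G2 interval was found at 34 G1 intervals, which are called lost here, and no G1 interval at 48 G2 intervals, called gained. In addition, 8 G1 intervals were split into 19 in G2, and 22 G1 intervals were merged into 9 in G2. Within a pair, the median share of the joint span that both stages covered was 88.9%, and 24 pairs shared under 50%.

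**Figure D1:**
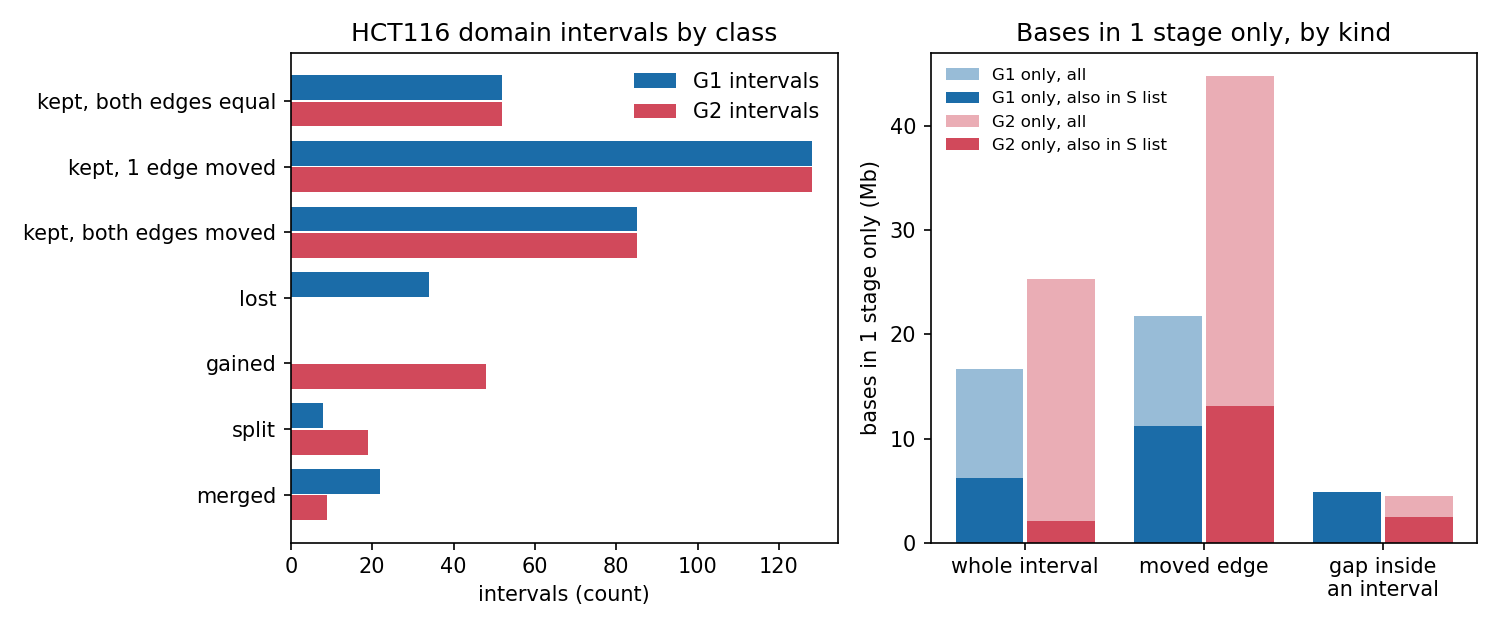
Left, number of intervals by class in G1 and G2 (bars, count). Right, bases in Mb that lie in 1 stage only, by whether they form a whole interval, a moved edge or a gap inside an interval of the other stage, with the darker part also in the S list. Moved edges held 44.8 Mb of the bases only in G2 and 21.8 Mb of those only in G1, and the whole-interval bases only in G2 were rarely in the S list.

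Length went with whether an interval met a partner. Because 1 shared base was enough for a partner, longer intervals meet one more easily, and the rule itself favours this pattern. Of the G1 intervals under 0.5 Mb, 17 of 60 (28.3%) were lost, and of those from 0.5 to 1 Mb, 15 of 80. Above that length 1 of 102 intervals from 1 to 2 Mb, 1 of 61 from 2 to 4 Mb and 0 of 26 from 4 Mb were lost. In the G2 list short intervals were likewise the ones most often unmatched, with 23 of 52 intervals (44.2%) gained under 0.5 Mb, 19 of 83 from 0.5 to 1 Mb, 6 of 115 from 1 to 2 Mb and 0 of the 61 and 30 longer ones. Lost intervals had a median of 0.45 Mb and gained ones of 0.5 Mb. They did not, as a rule, lie beside a shared domain: the median distance was 2.9 Mb from a lost interval to the nearest G2 interval and 1.8 Mb from a gained one to the nearest G1 interval.

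The 530 edges of the pairs moved outward more often than inward. In G2, 232 edges (43.8%) stood where they did in G1, 182 lay farther out and 116 farther in, so that 61.1% of the moved edges were outward. Most shifts were 1 grid step, 100 outward and 79 inward. Among longer shifts the outward share was 68.9%, with 82 outward against 37 inward, and at 500 kb or more it was 19 against 6. Outward shifts added up to 40.1 Mb and inward shifts to 19.6 Mb. Of the 85 pairs that moved at both edges, 34 widened on both sides, 12 narrowed on both, and 39 slid in 1 direction. The pairs as a whole were 20.5 Mb longer in G2, with 126 longer, 72 shorter and 67 of the same length.

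**Figure D2:**
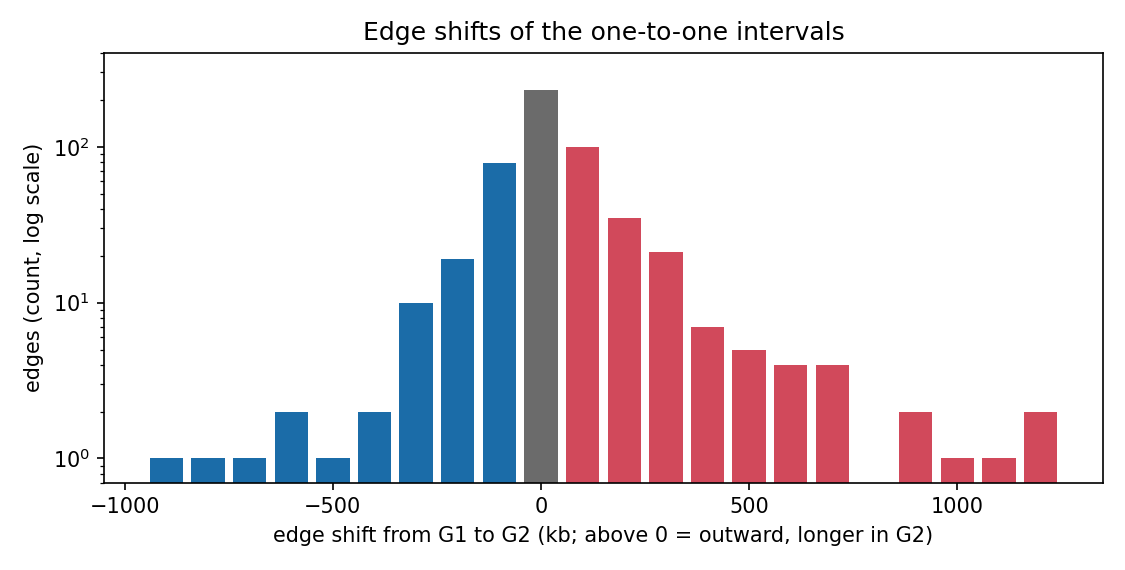
Number of edges (log scale) of the 265 one-to-one pairs by their shift from G1 to G2 in kb, where values above 0 are outward in G2. The tall bar at 0 holds 232 edges, and the outward side reaches 1200 kb against 900 kb on the inward side.

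The S list was used to place the differences. On the autosomes it held 266 intervals, against 329 in G1 and 341 in G2. The shares below were not adjusted for this, so a low share in S can also come from a list with fewer intervals. Of the bases shared by G1 and G2, 91.6% were in the S list too. Of the bases only in G1, 51.4% were in the S list, and of those only in G2, 23.7%. For whole intervals the shares were 37.1% of the lost bases and 8.29% of the gained bases, and without the longest lost interval the lost share was 27.5%. No base in the S list was found for 24 of the 34 lost and 43 of the 48 gained intervals. Moved edges gave 51.4% in G1 and 29.2% in G2. The gaps found in G2 inside 1 G1 interval came to 4.9 Mb, of which 100% was also in the S list. Of the 4.5 Mb of gaps that were filled in G2, 55.6% was in the S list.

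The longest lost intervals held few genes. The longest, chr6:91400001-93900000 (2.5 Mb, hg19, as all domain coordinates here), held 2 listed genes, the microRNA gene MIR4643 and the long non-coding RNA CASC6, and S covered 2.3 Mb of it. The second, chr3:62600001-63700000 (1.1 Mb), held 5, among them CADPS, which primes secretory vesicles for release and has most of its exonic bases outside, and SYNPR, a membrane protein of synaptic vesicles. The third, chr8:108000001-108900000 (0.9 Mb), held only ANGPT1, a ligand of the endothelial receptor TIE2, and had no base in the S list.

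Gained intervals held 216 genes at 8.52 per Mb, and lost ones 30 at 1.80 per Mb. Single gained intervals varied: the 10 of at least 0.8 Mb held from 0 to 16 genes, with a median of 6, and the 4 lost ones of that length held 1 to 5, with a median of 2. On chromosome 5, chr5:177700001-178900000 (1.2 Mb) held 11 genes, among them COL23A1, a transmembrane collagen with most of its exonic bases outside the interval, ADAMTS2, which trims procollagen, and the zinc finger genes ZNF354A, ZNF354B, ZNF354C, ZNF454 and ZNF879. On chromosome 11, chr11:112200001-113400000 (1.2 Mb) held 9, with the neural cell adhesion molecule NCAM1, the dopamine receptor DRD2 and TTC12. On chromosome 10, chr10:49900001-51000000 (1.1 Mb) held 16, with the repair factor ERCC6, which acts in transcription-coupled repair, and the cholinergic genes CHAT, which makes acetylcholine, and SLC18A3, which loads it into vesicles. Of these 3, only the one on chromosome 11 touched the S list, over 0.4 Mb.

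Long domains changed by splitting and merging. The longest G1 interval, chr5:17200001-31300000 (14.1 Mb), was cut in G2 into intervals of 8, 1 and 4.3 Mb, and CDH9, a cadherin of cell adhesion, lay in 1 of the gaps, while S covered the whole stretch as 1 interval of 14.2 Mb. On chromosome 4 a 10.2 Mb interval was cut in 2 by a gap in which no gene was listed. On chromosome 21, chr21:19300001-26900000 became 3 intervals of 0.6, 4.2 and 0.9 Mb, and its left end, with CHODL, a lectin-like membrane protein, and TMPRSS15, the gut protease enteropeptidase, was no longer covered. In the opposite direction, 3 G1 intervals of 2.9, 1 and 3 Mb near the start of chromosome 5 became chr5:1200001-10200000 (9 Mb) in G2. The 2.1 Mb that were new there held 26 genes, among them the lipid-remodelling enzyme LPCAT1, the dopamine transporter SLC6A3, the poly(A) polymerase PAPD7 and ICE1, which serves small nuclear RNA transcription. On chromosome 2, chr2:3600001-8700000 (5.1 Mb) joined 2 G1 intervals and took in 10 genes with RNF144A, a ubiquitin ligase, and RSAD2, an antiviral gene. On chromosome 8, a 5.1 Mb interval joined 2 and took in KHDRBS3, an RNA-binding protein, and KCNK9, a potassium channel.

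Single edges moved by up to 1200 kb. In chr4:8000001-9400000 a G1 interval of 0.2 Mb became 1.4 Mb in G2 and took in 9 genes, with the peroxisomal oxidase ACOX3 and the tRNA methyltransferase TRMT44. In chr5:168100001-170100000 an interval of 0.1 Mb became 2 Mb, with DOCK2, which activates Rac in leukocytes. By midpoint, though not by most exonic bases, it also took in the guidance ligand SLIT3 and KCNIP1. The S list covered 1.5 Mb of this stretch. In chr11:130400001-134900000 the interval grew from 3 to 4.5 Mb, with 1100 kb of this toward the chromosome end, and took in 18 genes, with the junction protein JAM3 and NCAPD3, a subunit of condensin II. The largest inward shifts left few genes outside: TRPC7, a cation channel, on chromosome 5, XIRP2, an actin-binding protein of striated muscle, on chromosome 2, and 4 genes with FAM110B on chromosome 8. The longest pairs with both edges equal were chr16:58800001-66300000 (7.5 Mb), with the cadherins CDH8 and CDH11, chr14:82000001-88800000 (6.8 Mb), with KCNK10, FLRT2 and GALC, and chr11:36700001-43300000 (6.6 Mb), with LRRC4C, a synaptic adhesion gene.

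**Figure D3:**
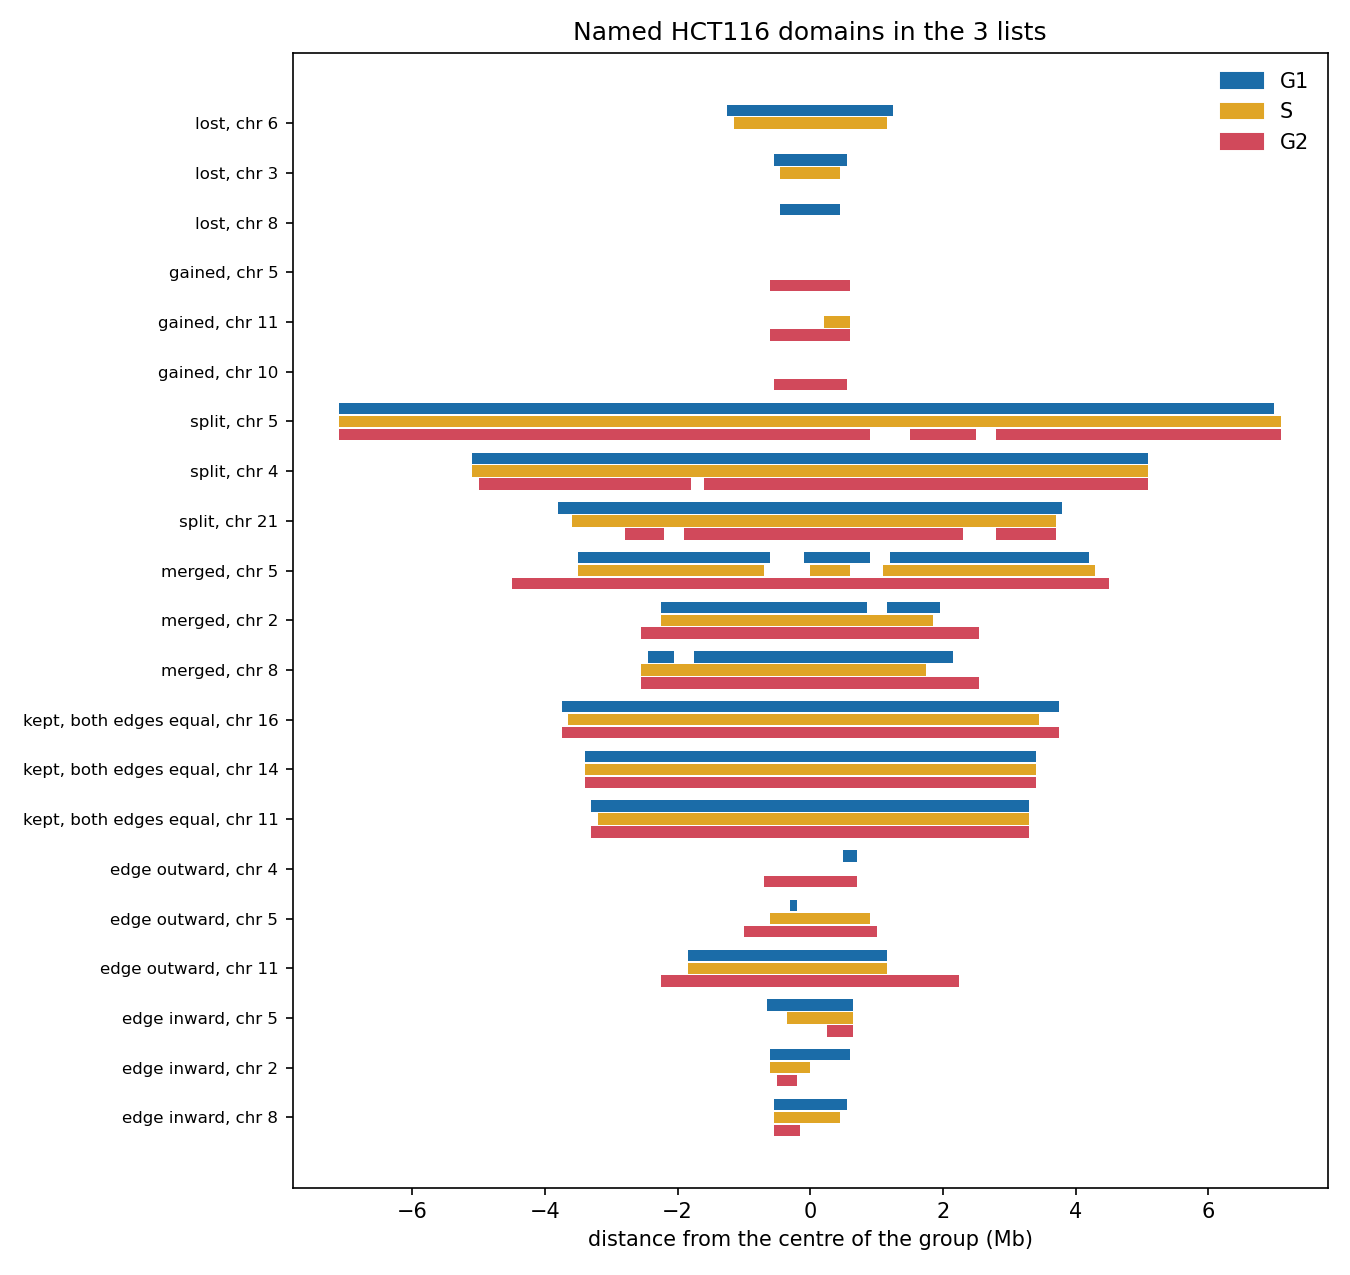
The 21 named groups of intervals, 3 for each kind of difference, drawn to scale as bars for G1, S and G2 against the distance in Mb from the centre of the group. In the 3 splits the S bar runs through the gaps seen in G2, and in the gained groups on chromosomes 5 and 10 no S bar is present.

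Bases only in G2 had a larger share near chromosome ends than the other bases. Within 5 Mb of the first base or of the last annotated base of a chromosome lay 17.4 Mb, or 23.3%, of the bases only in G2 and 0.8 Mb, or 1.84%, of those only in G1. The bases of both stages had 8.30% there and the whole span 7.64%. Leaving out each chromosome in turn gave 21.3 to 24.4% for G2 only, 1.44 to 2.1% for G1 only and 7.90 to 8.73% for both. Of the 44 ends, 24 had bases only in G2 and 6 had bases only in G1, and 24 had bases in both stages. No lost interval lay within 5 Mb of an end (0 of 34), while 14 of 48 gained ones did. Closeness to centromeres or to gaps of the genome assembly was not examined for either kind. Edges of pairs there moved outward in 27 cases and inward in 4, or 87.1% outward, against 155 and 112 (58.1%) elsewhere. With a window of 10 Mb the shares were 41.4% for G2 only, 9.22% for G1 only, 18.5% for both and 15.3% of the span, and with 2 Mb they were 6.15, 1.15, 2.78 and 3.06%. Starts of chromosomes whose short arm has no annotated genes enter as windows with little in them.

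Chromosomes differed in direction. G2 covered more than G1 on 16 of 22 and less on 6, namely 3, 6, 8, 9, 14 and 21. Chromosome 2 had the largest rise, from 42.6 to 49.2 Mb, followed by chromosome 1, from 28.3 to 34.6 Mb. On chromosome 21 coverage was 17.1 Mb in G1 and 14.2 Mb in G2, with 3 Mb only in G1 and 0.1 Mb only in G2, and on chromosome 3 it was 40 and 37.1 Mb, with 4 lost and 0 gained intervals. The 5 chromosomes with most bases only in G2 held 49.7% of them. Chromosome 18 had the highest covered share of the autosomes in both lists, 37.6% in G1 and 38.5% in G2.

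**Figure D4:**
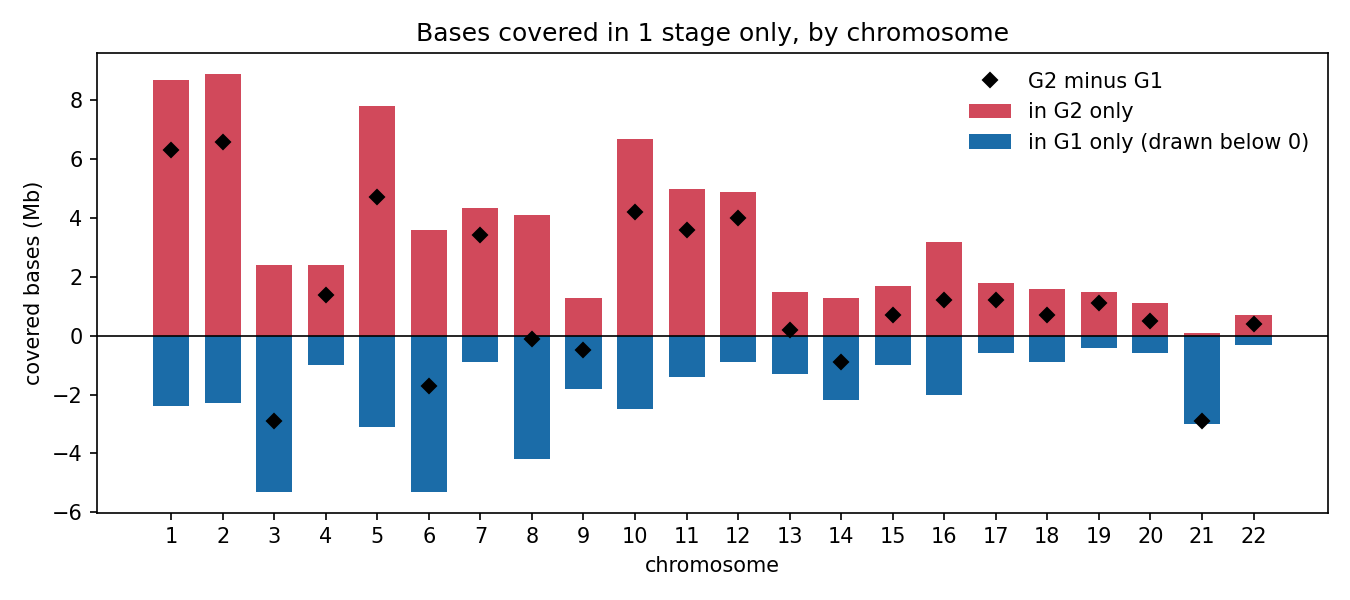
Bases in Mb covered only in G2 (bars above 0), only in G1 (bars drawn below 0) and their difference (diamonds) for each autosome. Chromosomes 2, 1 and 5 show the largest surplus in G2, and chromosomes 3 and 21 the largest in G1.

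Genes were placed by the midpoint of their span in the hg19 annotation of the deposited gene tables. Of 25914 genes on 1 autosome, 1679 (6.48%) lay in bases of both stages, 111 (0.428%) in bases only in G1 and 565 (2.18%) in bases only in G2. Per Mb this gave 3.43 genes in shared bases, 2.56 in bases only in G1 and 7.57 in bases only in G2, against 10.4 outside both lists. Outside means only that no interval was called. It includes long blocks without an interval in either list, such as chromosome 4 from 73800000 to 182500001 and chromosome 5 from 63900000 to 132600001. Why none was called there was not tested. Leaving out each chromosome in turn gave 6.67 to 8.0 per Mb for G2 only, 2.37 to 2.78 for G1 only and 3.16 to 3.58 for both. Protein-coding genes, by the RefSeq gene type of the symbol, were 1.53, 1.29, 4.10 and 7.43 per Mb in the same order. Of the stretches only in G1, 104 of 173 (60.1%) held no gene, and of those only in G2, 92 of 254 (36.2%). The genes of bases only in G2 were at 8.52 per Mb in whole intervals, 7.03 at moved edges and 7.56 in filled gaps. Protein-coding genes were at 5.05, 3.46 and 5.11 per Mb. The moved edges include 1 step with 36 microRNA genes. The whole intervals include 1 with 15 genes, of which 1 remained by exonic bases.

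RNA levels were available only for HEK293FT, a human embryonic kidney line, so they describe the genes and not HCT116. The values are read counts scaled to exon length and library total (RPKM), computed from the counts of 2 nuclear RNA libraries with totals of 6517331 and 6710602. A count of 3 or fewer is named as the floor, which is 0.460 and 0.447 RPKM for 1 kb of exon. It was not applied to the shares below, so a short gene can reach 1 RPKM with 3 counts or fewer. For genes with at least 300 exonic bases the shares were 14.4% in shared bases, 18.3% in G1 only, 34.1% in G2 only and 64.8% outside. A mean of 1 RPKM or more was reached by 13.3% of the genes in shared bases, with 14.3% in nuclear library 1 and 11.9% in library 2. In bases only in G1 it was 17.1% (20.7 and 17.1%), in bases only in G2 31.0% (32.9 and 29.4%) and outside 64.6% (65.5 and 62.7%). The 2 libraries therefore lay closer together in each class than G2 only lay to any other class. Among genes only in G2 the share was 21.3% in gained intervals, 34.6% at moved edges and 58.8% of the 34 genes in filled gaps. In the 3 longest gained intervals described above, 7 of 11, 3 of 9 and 3 of 16 genes reached 1 RPKM, and in the 3 longest lost ones 0 of 2, 0 of 5 and 0 of 1. Genes without a single nuclear count were 59.6% in shared bases, 38.7% in G1 only, 34.5% in G2 only and 13.0% outside. Near chromosome ends and elsewhere, the genes of G2 only reached 1 RPKM in 31% of 200 and 31.0% of 365 cases.

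**Figure D5:**
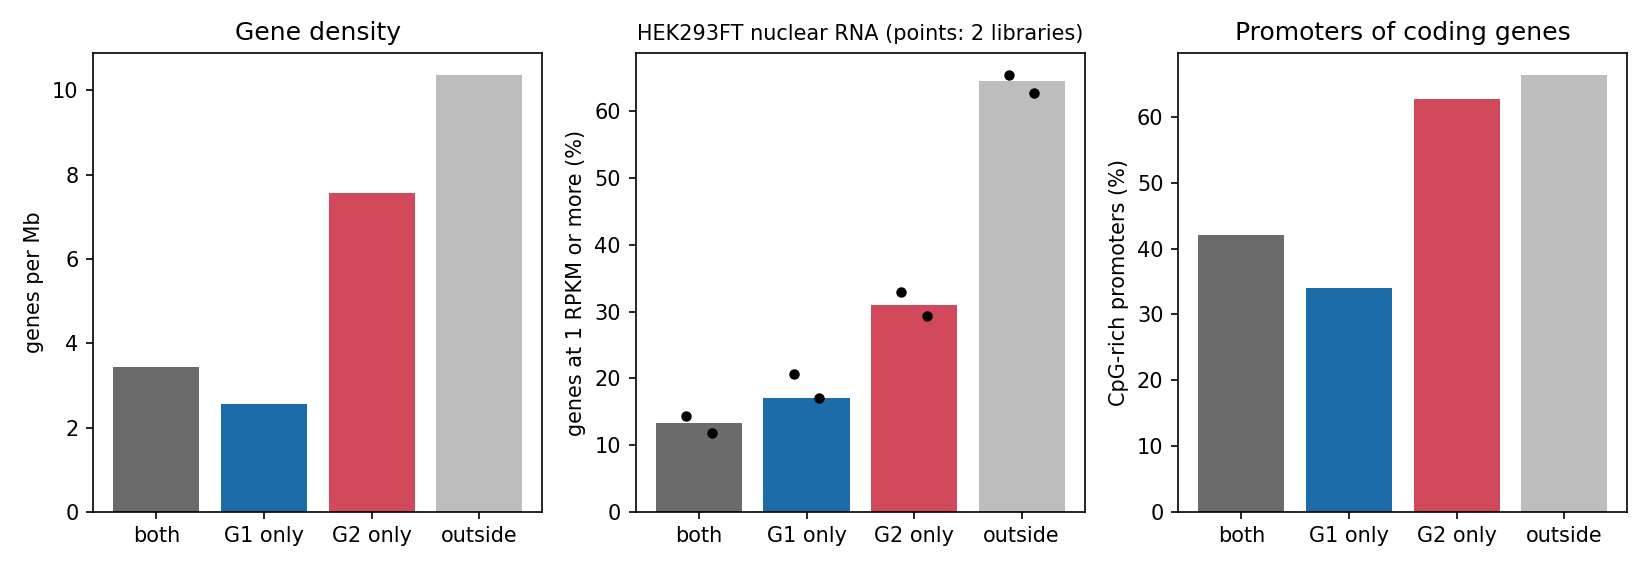
From left to right, genes per Mb, percent of genes with 1 RPKM or more in HEK293FT nuclear RNA (bars, mean of both libraries; points, each library) and percent of protein-coding genes with a CpG-rich promoter, by class of bases. Bases only in G2 lie between the shared domains and the outside in all 3 panels, while bases only in G1 lie close to or below the shared ones in gene density and promoter share.

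The 5 genes with the highest HEK293FT nuclear RPKM were listed for bases only in G2 and for bases only in G1. Those from G2 only included 2 ribosomal protein genes and those from G1 only 0. Of all 79 cytosolic ribosomal protein genes these 2 are 2.53%, near the 2.18% of all genes that lay in G2 only. Only 0.428% of all genes lay in G1 only. Only in G2 lay RPL38, a protein of the large ribosomal subunit, with 179.7 and 249.4 RPKM in the 2 nuclear libraries, and RPS7, of the small subunit, with 44.9 and 59.2. APMAP, an adipocyte membrane protein, had 42.2 and 34.0, and LPCAT1 35.6 and 26.1. INSIG1, a brake on cholesterol synthesis, had 13.1 and 79.3, and its libraries differed by more than those of the other 4 relative to their level. Only in G1 the highest was NRN1, a neurite outgrowth factor, with 3.57 and 14.7, followed by ADCY1, an adenylate cyclase, with 6.49 and 6.89, although most of its exonic bases lie outside the G1 interval. WSCD1 had 7.06 and 4.97, the transcription factor FOXP1 7.19 and 3.31, and ZNF708 6.15 and 3.82. Every one of the 5 from G2 exceeded 12 RPKM in both libraries, and of the 5 from G1 only NRN1 did, in library 2. These are the highest 5 of 565 genes in G2 only and of 111 in G1 only. A larger pool tends by itself to give higher maxima.

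Promoter sequences were examined because lamina-associated genes are known to have fewer CpG-rich promoters. RefSeq promoters (GRCh38.p14, 250 bases before to 50 after the start) were matched by symbol for protein-coding genes on all but 1 autosome, for 582 of 720 genes in shared bases, 44 of 52 in G1 only, 225 of 276 in G2 only and 13607 of 16287 outside. A promoter counted as CpG-rich with over 50% G and C and an observed to expected CG ratio over 0.6. This held for 42.1% in shared bases, 34.1% in G1 only, 62.7% in G2 only and 66.4% outside, and for 65.3% of all. The median number of CG dinucleotides was 10, 7, 22 and 23. Among genes only in G2, 93 of the 141 with a CpG-rich promoter (66.0%) reached 1 RPKM and 14 of the 84 others (16.7%). The same split was seen over all matched genes, with 86.5% and 41.3%. As examples, the 250 bases before the start are printed for the longest gene of the longest lost, equal and gained interval, for the most abundant gene of G1 only and of G2 only, and for the cell cycle gene MKI67. They run 5′ to 3′ on the gene's strand, with each CG dinucleotide in capitals and GRCh38.p14 coordinates.
CASC6, chr6:91690429-91690678, minus strand: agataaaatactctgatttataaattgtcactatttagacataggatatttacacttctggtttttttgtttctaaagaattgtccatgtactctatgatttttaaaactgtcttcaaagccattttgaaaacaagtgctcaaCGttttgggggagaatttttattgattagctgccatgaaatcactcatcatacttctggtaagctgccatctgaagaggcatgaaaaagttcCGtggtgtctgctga
NRN1, chr6:6004026-6004275, minus strand: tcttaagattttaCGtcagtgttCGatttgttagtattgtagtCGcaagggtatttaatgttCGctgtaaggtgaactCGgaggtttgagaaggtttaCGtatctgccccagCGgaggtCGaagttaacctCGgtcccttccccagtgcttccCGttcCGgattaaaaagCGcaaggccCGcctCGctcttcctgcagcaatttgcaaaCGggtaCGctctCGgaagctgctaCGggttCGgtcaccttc
CDH8, chr16:62036439-62036688, minus strand: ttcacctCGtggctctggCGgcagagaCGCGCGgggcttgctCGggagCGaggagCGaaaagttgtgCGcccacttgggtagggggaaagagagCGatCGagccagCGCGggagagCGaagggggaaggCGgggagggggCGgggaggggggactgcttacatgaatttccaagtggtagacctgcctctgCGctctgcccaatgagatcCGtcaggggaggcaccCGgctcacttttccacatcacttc
RPL38, chr17:74203428-74203677, plus strand: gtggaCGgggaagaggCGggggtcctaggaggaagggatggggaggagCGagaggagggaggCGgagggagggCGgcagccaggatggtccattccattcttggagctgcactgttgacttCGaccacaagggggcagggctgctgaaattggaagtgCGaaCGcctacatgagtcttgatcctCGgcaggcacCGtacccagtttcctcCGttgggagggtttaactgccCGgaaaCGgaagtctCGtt
COL23A1, chr5:178590394-178590643, minus strand: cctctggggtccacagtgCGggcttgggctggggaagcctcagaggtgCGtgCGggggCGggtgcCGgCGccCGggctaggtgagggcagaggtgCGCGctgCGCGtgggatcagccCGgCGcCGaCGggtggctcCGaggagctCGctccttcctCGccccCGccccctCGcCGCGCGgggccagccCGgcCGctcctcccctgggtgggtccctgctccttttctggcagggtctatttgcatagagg
MKI67, chr10:128126424-128126673, minus strand: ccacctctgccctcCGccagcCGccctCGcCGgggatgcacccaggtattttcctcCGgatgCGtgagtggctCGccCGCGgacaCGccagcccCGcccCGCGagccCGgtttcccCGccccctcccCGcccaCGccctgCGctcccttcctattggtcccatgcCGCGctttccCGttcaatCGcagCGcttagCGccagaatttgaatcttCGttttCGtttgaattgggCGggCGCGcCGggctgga
CASC6, from the lost interval, is a long non-coding RNA gene and not part of the shares above; it has 2 CG dinucleotides and 34% G and C. NRN1 (G1 only) and CDH8 (both stages) have 19 each, and promoters of this kind were thus also seen away from the bases only in G2. RPL38 has 14, COL23A1 25 and MKI67 30, all from bases only in G2.

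Families fixed by symbol were followed next. In several families of neuronal, sensory or hair genes, most members that lay in a domain lay in shared bases. The same holds over all genes, with 1679 of the 2355 in any domain (71.3%) in shared bases. Not every such family lay above that share: ionotropic glutamate receptors had 4 of 7 (57.1%) and potassium channels 16 of 24 (66.7%). Of 17 GABA-A receptor genes, which form the main inhibitory channels of the brain, 12 lay in bases of both stages and 0 in G1 only or G2 only. Of 23 cadherins 10 were shared and 1, CDH9, was only in G1, where both libraries listed it at 0. Placed by most exonic bases, 8 cadherins were shared, 1 was in G1 only and 1 in G2 only. Synaptic adhesion genes had 22 of 50 shared, 0 in G1 only and 3 in G2 only, namely SLIT3, most of whose exonic bases lie outside, NCAM1 (6.42 and 4.07 RPKM) and its antisense gene NCAM1-AS1, whose reads cannot be told from those of NCAM1 because strand was ignored. Of 396 olfactory receptor genes, which serve smell and are silent in other cells, 133 were shared, 2 (OR4A5 and OR4C46) were only in G1 and 6 (OR10J3, OR5AK4P, OR4N5, OR11G2, OR11H6 and OR11H7) only in G2. Keratin-associated proteins of hair had 32 of 94 shared and 0 in either stage alone.

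The other families follow. Over all 25914 genes, 6.48% were shared, 0.428% in G1 only and 2.18% in G2 only, and 2355 lay in any domain. Zinc finger genes with ZNF symbols, many of which repress transposable elements, had 116 of 553 shared, 4 in G1 only and 28 in G2 only. The 4 are ZNF85, ZNF708, ZNF738 and ZNF493 in the chromosome 19 cluster, and all exceeded 1 RPKM. In G2 only 16 of the 28 reached it, against 64 of the 116 in shared bases and 439 of all 553. Of the zinc finger genes in any domain, 78.4% were thus in shared bases. Ionotropic glutamate receptors had 4 of 21 shared and 3 (GRIK3, GRIN3A and GRID1) in G2 only, of which GRIN3A and GRID1 have most of their exonic bases outside. Potassium channel genes had 16 of 115 shared, 2 in G1 only (KCNQ3 and KCNMA1) and 6 in G2 only (KCND3, KCND3-AS1, KCNH1, KCNIP1, KCNMB1 and KCNK9). Placed by most exonic bases, 0 channels were left in G1 only and 3 in G2 only. Solute carriers, the membrane transporters, had 9 of 379 shared and 9 in G2 only, among them the amino acid transporter SLC6A19, SLC6A3 and SLC18A3. These 9 are 2.37% of the list, near the 2.18% of all genes that lay in G2 only. Of 79 cytosolic ribosomal protein genes 0 were shared and 2 (RPS7 and RPL38) were in G2 only, which is 2.53% and also near that share. Of 39 cell cycle genes only MKI67, the proliferation antigen Ki-67 that coats mitotic chromosomes, lay in a changed stretch, at a G2 edge, with 23.1 and 18.2 RPKM. This 1 gene is 2.56% of its list, again near the share over all genes. None of the 20 nuclear envelope genes lay in either list. HOX, histone, keratin, serpin, type I interferon, UDP glucuronosyltransferase, cornified envelope, clustered protocadherin and CEACAM genes also had 0 members in any of the 3 classes of bases. Such an absence means only that no interval was called at the midpoints of these genes. Cytochrome P450 genes had 3 of 67 shared, bitter taste receptors 1 of 24 (TAS2R1) and intestinal epithelium genes 1 of 28 (OLFM4), with 0 in changed bases. Long intergenic RNAs had 317 of 1487 shared, 15 in G1 only and 58 in G2 only, small nucleolar RNAs 87, 2 and 3 of 495, and microRNA genes 129, 6 and 79 of 1710. In the same order these are 21.3, 1.01 and 3.90%, 17.6, 0.404 and 0.606%, and 7.54, 0.351 and 4.62% of the lists. Of the 79 microRNA genes, 36 lie in a single grid step on chromosome 19. For beta-defensins, antimicrobial peptides, the midpoint rule gave 12 of 42 in G2 only, but the annotation lists 11 of these at copies that lie apart on chromosome 8, with the midpoint between them, and by exonic bases only DEFB1 remained. The gained interval chr8:6700001-7200000, which holds DEFB1, has 17 genes in all, with the alpha-defensins DEFA1, DEFA3, DEFA4, DEFA5 and DEFA6 (named after their values were seen), and 0 of the 17 reached 1 RPKM.

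Gene-dense stretches were all on the G2 side, with 13 holding 10 or more genes, 199 in sum, and the most in a stretch only in G1 was 5. By exonic bases 12 of the 13 still held 10 or more. The regions named in the rest of this paragraph were chosen after their values were seen. The densest was chr19:54200001-54300000, 1 grid step by which the edge of an interval moved outward, with 36 microRNA genes, among them members of the chromosome 19 cluster and the neighbouring MIR371A, MIR371B, MIR372 and MIR373. Of the 50 microRNA genes in the G2 interval chr19:53500001-54300000, 14 lay in the part that G1 covered and 36 in the added step, and S had no interval there. A difference of 1 grid step cannot be told from the resolution of the calls. The cluster is known for its expression in placenta. In HEK293FT, 35 of the 36 genes had no nuclear count. They are so short, as with MIR525 at chr19:54200787-54200871, that an absent count says little about their expression. Also on chromosome 19, the gained interval chr19:55000001-55400000 held 16 genes, among them the leukocyte receptors LILRA1, LILRA2, LILRB1 and LILRB4 and the killer cell receptors KIR2DL1, KIR2DL3, KIR3DL1 and KIR3DL2, and 0 reached 1 RPKM. In contrast, 10 of 13 genes did in chr11:133800001-134900000 and 8 of 17 in chr5:1200001-2200000, which holds TERT, the catalytic subunit of telomerase, with 5.35 and 4.08 RPKM. The 8 include the microRNA gene MIR6075 (4.85 and 4.71 RPKM), which is so short that few counts suffice.

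The microRNAs of the added chromosome 19 step are shown because several of them share a seed. RefSeq (GRCh38.p14) gave 52 mature sequences for 35 of the 36 genes, with 28 different seeds, the bases 2 to 8 that pair with targets. Of these seeds 18 occurred once, and the 3 most frequent covered 19 of the 52 sequences. The most frequent seed was UCUAGAG, with 9 of these sequences of 11 that carry it among 2370 in the table, followed by AAAGCGC with 5 of 5 and AAGUGCU with 5 of 12. The first 3 of each along the chromosome are given 5′ to 3′ with the seed in capitals.
hsa-miR-523-5p: cUCUAGAGggaagcgcuuucug
hsa-miR-518f-5p: cUCUAGAGggaagcacuuucuc
hsa-miR-526a-5p: cUCUAGAGggaagcacuuucug
hsa-miR-518b: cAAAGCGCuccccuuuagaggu
hsa-miR-526a-3p: gAAAGCGCuuccuuuuagagga
hsa-miR-518c-3p: cAAAGCGCuucucuuuagagugu
hsa-miR-520b-3p: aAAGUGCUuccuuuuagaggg
hsa-miR-520c-3p: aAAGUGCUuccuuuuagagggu
hsa-miR-520d-3p: aAAGUGCUucucuuuggugggu
The first 3 share UCUAGAG, the next 3 AAAGCGC and the last 3 AAGUGCU. All 9 come from genes in the step that the G2 list covered and the G1 list did not, a difference that cannot be told from the resolution of the calls. Seeds of the 14 microRNA genes in the part that both stages covered were not counted apart. Shared seeds are thus not shown to be particular to the added step.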

How the data were processed

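The authors mapped lamina-associated domains in HCT116 and deposited 1 consensus list of intervals for each stage, with positions in hg19 per the submitters' processing notes and no scores. The file titles name a hidden Markov model; its caller, windows and the merging of replicates are not given in the sources used here. RNA values are counts per gene that the authors deposited, made with featureCounts 1.5.2 per the file headers, without strand and with reads shared by overlapping genes counted for each. From these, RPKM was computed here.

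Intervals were joined wherever they shared 1 base, with Python 3.11.15, numpy 2.4.6 and pandas 2.3.3, and the code was tested on simulated lists. Genes on 1 autosome with a span up to 3 Mb were placed by midpoint, and 24974 of 25914 symbols matched RefSeq gene types. Promoters of chromosome 8 were not analysed here. The named intervals are the 3 longest lost, gained, split, merged and equal ones and the 3 largest outward and inward shifts, with up to 5 of their longest genes, the 5 highest RPKM genes of at least 300 exonic bases per stage, and the members of 28 lists in changed bases where these were 10 or fewer. Other names were chosen after their values were seen. Some members that the rule names are not reported here. Members and lists were chosen with earlier results of these data known. The floor of 3 counts refers to counting error alone and was not applied to the shares at 1 RPKM. Alternatives varied the overlap rule, short gaps, short intervals, edge tolerance, single chromosomes, gene placement, libraries and thresholds.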

Additional observations from a re-analysis of the deposited data

How the results depend on the processing

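No paired analysis was possible because each stage has 1 consensus list without replicate columns. The lists carry no depth or score, so a difference of 1 grid step cannot be told from the resolution of the calls, and how far the replicates differed is unknown. Of 117 values under 20 alternatives, 92 stayed within 1.5 times for counts and Mb, or within the 95% Wilson interval for shares, or within 1 SD of the 2 nuclear libraries for median levels. The 92 do not measure robustness, because some values could not move. The edge tolerance leaves the counts of lost, gained, split, merged and one-to-one intervals unchanged by construction. Leaving out 1 autosome can change a total only a little. The limit of 1.5 times is wide: leaving out intervals under 300 kb gave 23 lost intervals instead of 34 and 59 gained instead of 48. Placing genes by whole span gave 76 instead of 111 in G1 only. Requiring an overlap of 50% of each interval gave 77 lost, 89 gained, 0 split and 0 merged intervals, by its own construction. With edges within 100 kb taken as equal, 59.6% of pairs had both edges equal, against 19.6%, and with only shifts over 100 kb 68.9% of moved edges were outward. The share of genes at the RPKM threshold, in the order both, G1 only, G2 only and outside, was 17.1, 25.2, 39.5 and 70.6% at 0.5 RPKM and 8.87, 10.8, 24.2 and 56.6% at 2 RPKM. In the cytosolic libraries it was 8.87% for both, 23.9% for G2 only and 52.3% for outside, where the header of cytosolic replicate 1 names the output of nuclear replicate 1 and the library was used as labelled. Outside genes had 62.7% to 65.5% when 1 nuclear library was left out. G2 only lay between outside and the other classes in all 9 settings of this share. Placing genes by most exonic bases, added after seeing the data, gave 1660 genes in both, 107 in G1 only and 544 in G2 only.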
